A study of Homo sapiens with 16 samples.

Results

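The insulin-like growth factor binding protein genes IGFBP1 to IGFBP7 and the receptor genes IGF1R, IGF2R and INSR were followed across a set of hypoxia experiments in HCT116, a widely used cell line from a human colorectal carcinoma. The 10 genes were taken by symbol from a table of 23669 genes. Poly(A) RNA had been sequenced from 4 lines of HCT116 cells, each in normoxia (21% oxygen) and after 24 h of hypoxia (1% oxygen), in McCoy's 5A medium with serum. The shNT cells stably expressed a non-targeting shRNA. The shTIP60 cells expressed an shRNA against TIP60, the acetyltransferase encoded by KAT5, and in the shCDK8 cells the shRNA was directed at CDK8, which encodes a kinase subunit of Mediator. In the HIF1A-/- cells, called HIF1A-null here, the gene encoding the HIF-1 subunit that is degraded when oxygen is present had been deleted. The labels name no shRNA in the HIF1A-null cells, so their comparison with shNT also differs in that respect. Each of the 8 groups had 2 libraries, stated to be independent biological replicates and called A and B here. Each target was altered in 1 line, so the spread between libraries is that between cultures of a line and not between separate knockdowns or deletions.

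Insulin-like growth factors circulate and act locally while bound by the secreted binding proteins, which hold them away from their receptors, carry them, or release them when proteases cut the binding protein. IGF1R is the tyrosine kinase receptor of IGF1 and IGF2, INSR is the insulin receptor and can form hybrids with IGF1R, and IGF2R takes IGF2 to lysosomes for degradation and carries enzymes tagged with mannose 6-phosphate. IGFBP1 and IGFBP3 are known as hypoxia-responsive genes in several tissues, and IGFBP3 can also act on cells independently of the growth factors.

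Total counts ran from 26620086 to 39401494 per library, so that the detection floor, set at 3 counts, lay between 0.0716 and 0.112 CPM (the usual depth-scaled count unit, here with TMM factors). The tests covered 15520 genes (65.6%), those left after genes with few counts were removed. KAT5 stood at 19.7 ± 0.763 CPM (SD, n = 2) in shTIP60 and 85.8 ± 1.34 in shNT cells in normoxia. CDK8 stood at 6.29 ± 0.729 CPM in shCDK8 and 26.0 ± 1.78 in shNT. HIF1A stood at 13.6 ± 0.763 CPM in HIF1A-null and 107 ± 0.804 in shNT cells in normoxia, but at 48.9 ± 12.4 and 65.9 ± 6.55 in hypoxia. Counts per gene do not show which part of HIF1A was deleted. All 6 epithelial markers (EPCAM, KRT8, KRT18, KRT19, CDH1 and CLDN4) exceeded 1 CPM in both libraries of every group. Their sum ran from 4077 to 7187 CPM in normoxia and from 7156 to 11333 in hypoxia. The sum hides members that moved apart. In shTIP60 against shNT in normoxia KRT8 and KRT18 were higher (log2 fold changes 1.22 and 1.26). EPCAM and CDH1 were lower (-0.71 and -0.72), while KRT19 and CLDN4 did not pass the test (edgeR adjusted p = 0.231 and 0.103). Of 7 fibroblast markers, COL1A1 alone exceeded 1 CPM in both libraries of every group, LUM was at 0 throughout, and the sum of the list ran from 21.7 to 40.7 CPM in normoxia and from 43.7 to 82.7 in hypoxia. Of 4 leukocyte markers, CD68 alone exceeded 1 CPM, PTPRC had 0 to 2 counts per library, and the sum ran from 7.17 to 24.8 CPM in normoxia and from 29.9 to 117 in hypoxia. By group, the leukocyte sums were 7.17 to 8.17 (shNT), 21.6 to 24.8 (shTIP60), 19.9 to 21.4 (shCDK8) and 12.0 to 14.05 CPM (HIF1A-null) in normoxia. In hypoxia they were 39.3 to 40.0, 100.2 to 117, 63.7 to 81.1 and 29.9 to 48.1 CPM. The 4 endothelial markers summed to 0.736 to 3.35 CPM. These sums moved with oxygen and line as some genes below did, and their part in the results was not tested. In bulk RNA, fewer cells of a type and less RNA per cell cannot be told apart.

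HCT116 cells expressed a narrow part of the binding protein family. IGFBP2 and IGFBP6 were present at high levels in all 8 groups, IGFBP3 ranged from 4 to 50364 counts per library, IGFBP5 was near the detection floor, and IGFBP1, IGFBP4 and IGFBP7 were close to 0. On the scale of CPM per kb of the canonical transcript, which allows genes to be compared, group means ran from 118 to 240 for IGFBP2, from 69.1 to 603 for IGFBP6 and from 0.0481 to 571 for IGFBP3. The same scale gave 6.47 to 12.3 for IGF2R, 3.78 to 10.3 for INSR, 1.82 to 4.24 for IGF1R and 0.00669 to 0.216 for IGFBP5. IGFBP6 was above IGFBP2 by either length in 5 of 8 groups, and in shNT normoxia and both shCDK8 groups the order turned with the length used. In shNT cells in normoxia IGFBP2 was above IGFBP6 by canonical length (164 against 104 CPM per kb) and below it when all annotated exons were counted (48.8 against 73.4).

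Of the 10 genes, 7 were tested. IGFBP1, IGFBP4 and IGFBP7 had too few counts: 13, 4 and 3 over all 16 libraries. The IGFBP1 reads, from a gene best known for its induction in liver, lay in 4 libraries, with 8 and 2 counts in shTIP60 hypoxia A and B, 1 in shTIP60 normoxia B and 2 in shCDK8 hypoxia B. In shTIP60 cells the hypoxia to normoxia ratio of IGFBP1 was 10.4 with a 95% counting interval from 1.48 to 450. Against shNT in hypoxia, where IGFBP1 had 0 counts, it was at least 3.02-fold higher, with the floor of 3 counts taken over the group. Most of these reads came from 1 library, so IGFBP1 in shTIP60 hypoxia rests on shTIP60 hypoxia A. Counting intervals and floors cover counting error only.

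In GRCh37, IGFBP3 lies on chromosome 7 from 45951844 to 45961473 on the minus strand, with 5 exons in the canonical transcript. IGFBP1, on the plus strand from 45927959 to 45933259, is its neighbour at a distance of 18584 bp. IGFBP2 (chromosome 2, 217497551 to 217529159, plus strand) and IGFBP5 (217536828 to 217560272, minus strand) form another neighbouring pair, 7668 bp apart. IGFBP6 lies on chromosome 12 from 53491220 to 53496129 on the plus strand, with 4 exons. IGFBP4 (chromosome 17, 38599702 to 38613977) and IGFBP7 (chromosome 4, 57896939 to 57976551) are on other chromosomes. IGF1R lies on chromosome 15 from 99191768 to 99507759 (21 exons), IGF2R on chromosome 6 from 160390114 to 160534539 (48 exons) and INSR on chromosome 19 from 7112266 to 7294425 (22 exons). IGF2R is overlapped on the opposite strand by AIRN, IGF1R by antisense RNAs such as SYNM-AS1 and IGFBP5 by DIRC3-AS1. The strand setting of the counting is not given in the sources used here, so reads of these genes and their antisense partners cannot be told apart.

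Hypoxia raised IGFBP6, IGF1R and INSR in all 4 lines, and IGFBP3 passed the test in shNT, shTIP60 and shCDK8 cells. In HIF1A-null cells the IGFBP3 ratio was near that of shTIP60 (2.59-fold against 2.47-fold). It rested there on 10 and 18 counts and did not pass. In shNT cells 4 of 7 tested genes rose and 0 fell, where 20.7% of all tested genes rose and 20% fell (40.7% in either direction, adjusted p below 0.05, edgeR quasi-likelihood test). In shTIP60 cells 6 of 7 rose and 0 fell (19.4% and 19.8% of all genes, 39.2% in either direction). That count fell to 3 without shTIP60 normoxia A, 3 without normoxia B, 2 without hypoxia A and 4 without hypoxia B, and to 2 against a 1.5-fold null. In shCDK8 cells 6 of 7 rose and 0 fell (13.8% and 11%, 24.8% in either direction), and 3 rose against the 1.5-fold null. In HIF1A-null cells 3 of 7 rose and 0 fell (18.9% and 19.1%, 38% in either direction), and 0 were called against the 1.5-fold null. The median log2 change of the 7 tested genes was 0.91 in shNT, 0.80 in shTIP60, 0.88 in shCDK8 and 0.62 in HIF1A-null, and the median over all tested genes was between -0.016 and -0.000669 in these comparisons. Scaled by library totals alone, the median log2 change of all genes was -0.20, -0.23, -0.16 and -0.28 in shNT, shTIP60, shCDK8 and HIF1A-null, so the changes given here are relative to most genes. That scaling ended the calls of IGF1R in shTIP60 (adjusted p = 0.118), IGFBP2 in shCDK8 (0.0996), IGF2R in shCDK8 (0.0700) and IGFBP6 in HIF1A-null (0.195). It moved the split of all calls to 2116 higher and 4605 lower in shNT, from 3208 and 3103. The splits became 1899 and 4859 in shTIP60, 1447 and 3085 in shCDK8, and 1485 and 5141 in HIF1A-null.

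**Figure D1:**
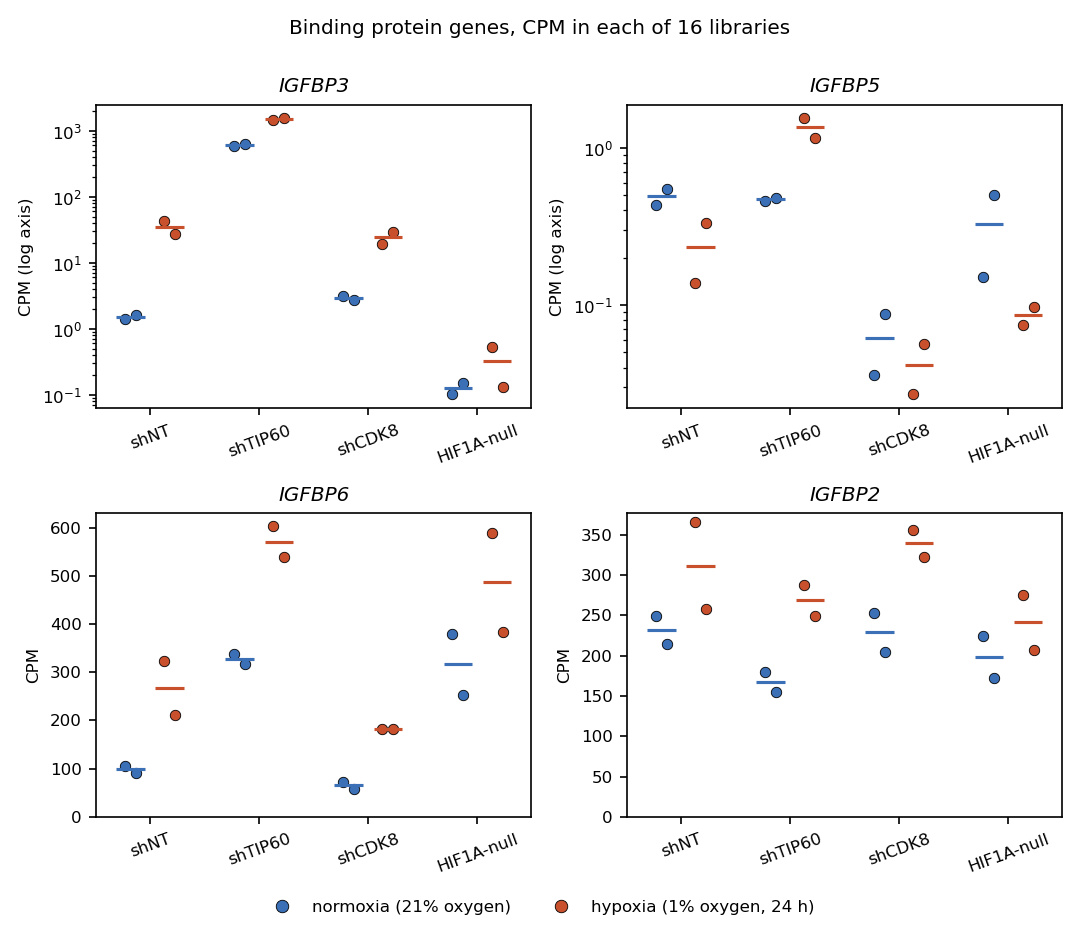
CPM of IGFBP3, IGFBP5, IGFBP6 and IGFBP2 in each of the 16 libraries (points) by line, with normoxia in blue, hypoxia in orange and the group mean as a bar. The axes of IGFBP3 and IGFBP5 are logarithmic and the others start at 0. IGFBP3 spans from 0.101 CPM in a HIF1A-null library to 1532 CPM in a shTIP60 library, while IGFBP2 stays between 155 and 366 CPM.

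IGFBP3, which encodes the main carrier of insulin-like growth factors in blood, had the widest range of the family. Its group means differed by up to 11878 times between HIF1A-null cells in normoxia and shTIP60 cells in hypoxia. The low end of that ratio rests on 10 counts. In shNT libraries A and B, IGFBP3 stood at 1.39 and 1.62 CPM in normoxia and at 42.7 and 27.4 CPM in hypoxia. Both hypoxic libraries lay far above both normoxic libraries, and the rise was 4.53 ± 0.29 (log2 fold change ± SE, adjusted p = 1.81e-08). In shCDK8 cells IGFBP3 stood at 3.15 and 2.68 CPM in normoxia and at 19.3 and 29.7 CPM in hypoxia. The groups again did not overlap, and the rise was 3.07 ± 0.27 (adjusted p = 1.13e-06).

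In shTIP60 cells IGFBP3 was already high in normoxia, at 590 and 618 CPM, and reached 1451 and 1532 CPM in hypoxia. Every shTIP60 library exceeded every library of the other lines. The rise with hypoxia was 1.30 ± 0.23 (adjusted p = 3.37e-04). In HIF1A-null cells IGFBP3 stood at 0.101 and 0.150 CPM in normoxia (4 and 6 counts) and at 0.521 and 0.130 CPM in hypoxia (14 and 4 counts). The groups overlapped, and the change of 1.29 ± 0.73 did not pass the test (adjusted p = 0.176). The few counts limit the precision of this value.

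Set against shNT, IGFBP3 in shTIP60 cells was 401 times higher in normoxia by the ratio of group means, a log2 change of 8.64 ± 0.33 (adjusted p = 1.24e-10), with rank 2 by p among the 15520 genes. In hypoxia the ratio was 42.5 and the log2 change 5.41 ± 0.27 (adjusted p = 2.07e-09). HIF1A-null cells had 12.0 times less IGFBP3 than shNT in normoxia (-3.55 ± 0.51, adjusted p = 1.81e-04) and 108 times less in hypoxia (-6.79 ± 0.37, adjusted p = 2.75e-09). Without HIF1A-null hypoxia A the latter was -8.04. For shCDK8 cells the log2 difference was 0.94 ± 0.31 in normoxia (adjusted p = 0.0604) and -0.52 ± 0.23 in hypoxia (adjusted p = 0.109), and neither passed the test. DESeq2 called the former (adjusted p = 0.00814), and the latter was called without shNT hypoxia B (0.0377) or without shCDK8 hypoxia B (0.0425).

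The hypoxia response of IGFBP3 itself differed between lines. The response of shTIP60 minus that of shNT was -3.23 ± 0.36 on the log2 scale (adjusted p = 0.00184), with rank 1 by p among all genes. In this comparison 5 genes were called (0.0322%, with 0.00644% higher and 0.0258% lower). Over all 16 alternatives IGFBP3 kept this call, with an adjusted p of at most 0.0329. On the linear scale the order was the reverse. IGFBP3 gained 888 CPM with hypoxia in shTIP60 cells and 33.6 CPM in shNT cells, which are a 2.47-fold and a 23.3-fold rise of the group means. In shCDK8 cells it gained 21.6 CPM (8.398-fold) and in HIF1A-null cells 0.200 CPM (2.59-fold). The response of HIF1A-null minus that of shNT was -3.24 ± 0.91 (adjusted p = 0.0248, where 16.4% of all genes were called, 7.53% higher and 8.92% lower). This last call was lost without shNT normoxia A (adjusted p = 0.0561), HIF1A-null normoxia B (0.193) or HIF1A-null hypoxia B (0.0678), with only the groups compared (0.0548) and against a 1.5-fold null (0.0755). The response of shCDK8 minus that of shNT was -1.46 ± 0.39 (adjusted p = 0.175), while DESeq2 gave an adjusted p of 0.00998. In that comparison 0 of 7 genes were called by edgeR, 2 had an unadjusted p below 0.05 (IGFBP3 and IGF2R), and DESeq2 called 1 (edgeR called 0.0387% of all genes, 0.00644% higher and 0.0322% lower). With a replicate block, and with no filter, edgeR called both IGFBP3 (adjusted p = 0.0375 and 6.10e-05) and IGF2R.

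The order of the IGFBP3 group means, from low to high, was HIF1A-null normoxia, HIF1A-null hypoxia, shNT normoxia, shCDK8 normoxia, shCDK8 hypoxia, shNT hypoxia, shTIP60 normoxia and shTIP60 hypoxia. The libraries of HIF1A-null normoxia and hypoxia overlapped, as did those of shCDK8 and shNT in hypoxia. All other neighbours in this order stood apart. Of the neighbouring genes, IGFBP1 had too few counts for a test. TNS3, which encodes the focal adhesion protein tensin 3, is the next protein-coding gene beyond IGFBP3, at a distance of 1353278 bp. TNS3 changed by 0.60 ± 0.18 between shTIP60 and shNT in normoxia (adjusted p = 0.0322), where 18.4% of all genes were called. The TNS3 difference in hypoxia was 0.27 ± 0.18 (adjusted p = 0.332).

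The 250 bases before the start of IGFBP3 are shown because this gene had the widest range of the 7 tested, with the windows of INSR, which rose in all 4 lines, and of IGF2R, which rose in shCDK8 cells. The sequences are from RefSeq in GRCh38.p14, 5′ to 3′ on the gene's strand. Capitals mark ACGTG and GCGTG, core letters of the hypoxia response element, on either strand (CACGT and CACGC on the reverse).
IGFBP3, chr7:45921273-45921522, minus strand: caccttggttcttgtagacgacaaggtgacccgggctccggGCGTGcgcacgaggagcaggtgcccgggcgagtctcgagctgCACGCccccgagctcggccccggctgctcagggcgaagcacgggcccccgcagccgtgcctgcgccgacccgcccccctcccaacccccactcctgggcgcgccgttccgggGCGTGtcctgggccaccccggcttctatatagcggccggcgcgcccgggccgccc
INSR, chr19:7294415-7294664, minus strand: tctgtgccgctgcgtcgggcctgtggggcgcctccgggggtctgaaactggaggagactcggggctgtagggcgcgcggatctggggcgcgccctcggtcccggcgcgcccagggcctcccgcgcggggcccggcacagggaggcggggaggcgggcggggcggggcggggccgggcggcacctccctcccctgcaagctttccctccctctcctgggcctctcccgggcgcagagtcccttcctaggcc
IGF2R, chr6:159968832-159969081, plus strand: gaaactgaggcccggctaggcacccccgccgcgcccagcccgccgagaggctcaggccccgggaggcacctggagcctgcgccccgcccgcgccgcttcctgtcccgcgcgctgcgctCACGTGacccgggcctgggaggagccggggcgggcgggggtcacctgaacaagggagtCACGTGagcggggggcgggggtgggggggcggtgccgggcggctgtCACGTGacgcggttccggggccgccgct

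The IGFBP3 window held 3 matches of GCGTG, beginning 209, 167 and 55 bases before the start, and 0 of ACGTG. The INSR window held 0 matches of either. The IGF2R window held 6 overlapping matches of ACGTG, in pairs on both strands of the 3 palindromes CACGTG. Of 35116 windows of this length in the same table, 43.2% held either motif, 18.5% held ACGTG and 32.2% held GCGTG. The IGF1R window held 5 matches, 1 of 3 windows of IGFBP2 held 1, and those of IGFBP4, IGFBP5 and IGFBP6 held 0. A match is a run of letters and not a measured binding site.

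IGFBP6, whose protein binds IGF2 in preference to IGF1, was raised by hypoxia in all 4 lines and was higher in shTIP60 and HIF1A-null cells than in shNT. In shNT libraries A and B it stood at 106 and 91.4 CPM in normoxia and at 323 and 211 CPM in hypoxia. In shCDK8 cells it stood at 73.0 and 57.9 CPM in normoxia and at 182.3 and 183.0 CPM in hypoxia. Normoxic and hypoxic libraries of these 2 lines did not overlap, and the rises were 1.44 ± 0.23 (adjusted p = 1.66e-04) and 1.48 ± 0.23 (adjusted p = 3.45e-04). In shTIP60 cells it stood at 338 and 318 CPM in normoxia and at 603 and 539 CPM in hypoxia. In HIF1A-null cells it stood at 380 and 254 CPM in normoxia and at 589 and 383 CPM in hypoxia. The HIF1A-null libraries A lay above libraries B in both conditions, and hypoxic library B (383.3 CPM) was close to normoxic library A (380.2 CPM). Library A also lay above library B in every group of the other lines except shCDK8 hypoxia. Compared letter by letter, HIF1A-null values rose with hypoxia from 380 to 589 CPM in A and from 254 to 383 CPM in B. The main fit did not pair libraries by letter, so leaving out a single library also leaves A and B unequally represented. The rises were 0.80 ± 0.23 in shTIP60 (adjusted p = 0.0117) and 0.62 ± 0.23 in HIF1A-null (adjusted p = 0.0439). The call in HIF1A-null was lost without normoxia B (0.35, adjusted p = 0.303) or hypoxia A (0.27, adjusted p = 0.424). That in shTIP60 was lost without normoxia A (0.0562), normoxia B (0.0754) or hypoxia A (0.0786).

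In normoxia IGFBP6 was higher than in shNT by 1.73 ± 0.24 in shTIP60 (adjusted p = 7.98e-05) and by 1.68 ± 0.24 in HIF1A-null cells (adjusted p = 1.32e-04). IGFBP6 and IGFBP3 thus differed from shNT in the same direction in shTIP60 and in opposite directions in HIF1A-null cells. In hypoxia the IGFBP6 differences were 1.09 ± 0.23 (adjusted p = 0.00300) and 0.86 ± 0.23 (adjusted p = 0.00704). Without shNT hypoxia B these became 0.82 (adjusted p = 0.0565) and 0.59 (adjusted p = 0.0939), and without HIF1A-null hypoxia A the latter became 0.52 (adjusted p = 0.113). The shCDK8 values lay below those of shNT, by -0.59 ± 0.23 in normoxia (adjusted p = 0.112) and -0.55 ± 0.23 in hypoxia (adjusted p = 0.0865), and did not pass the test. In hypoxia the shCDK8 difference was called without shNT hypoxia B (-0.82, adjusted p = 0.0348). The response of HIF1A-null minus that of shNT was -0.82 ± 0.32 for IGFBP6 (adjusted p = 0.0983). It was called with a replicate block (0.00563), with no filter (0.00294), and without shNT hypoxia B (0.0365), HIF1A-null normoxia B (0.0410) or HIF1A-null hypoxia A (0.0248).

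IGFBP2, a binding protein made by many epithelial tumours, varied least among the binding proteins tested. In shTIP60 cells it stood at 179.9 and 154.7 CPM in normoxia and at 288 and 249 CPM in hypoxia, a rise of 0.68 ± 0.19 (adjusted p = 0.0112). In shCDK8 cells it stood at 253 and 204 CPM in normoxia and at 356 and 323 CPM in hypoxia, a rise of 0.57 ± 0.19 (adjusted p = 0.0428). Neither pair of groups overlapped. The shNT values of 249 and 214 CPM in normoxia and 366 and 257 CPM in hypoxia (0.43 ± 0.19, adjusted p = 0.0890) did not pass. Nor did the HIF1A-null values of 224 and 172 CPM in normoxia and 275 and 208 CPM in hypoxia (0.29 ± 0.19, adjusted p = 0.261). This split of calls does not show that IGFBP2 reacted to hypoxia differently from line to line. By DESeq2 its log2 change departed from the shNT change by 0.26 in shTIP60 (adjusted p = 0.9999) and 0.11 in shCDK8 (0.919). For HIF1A-null the departure was -0.16 (adjusted p = 0.755 by DESeq2). The main edgeR fit called none of them either. The shTIP60 call was lost without normoxia B (adjusted p = 0.101) or hypoxia A (0.0966), and the shCDK8 call without normoxia B (0.261), hypoxia A (0.188) or hypoxia B (0.103). The shNT change was called without hypoxia B (0.66, adjusted p = 0.0274). Against shNT, IGFBP2 was not called in any line in the fit of all 16 libraries, but other edgeR settings called it. In shTIP60 in normoxia (-0.47 ± 0.19, adjusted p = 0.111) it was called with only the groups compared (0.00858), with a replicate block (0.00321) and with no filter (0.0210). In HIF1A-null in hypoxia (-0.37 ± 0.19, adjusted p = 0.142) it was called with library totals (0.0360), with the block (0.00973) and without shNT hypoxia B (0.0411).

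IGFBP5, a binding protein that attaches to extracellular matrix, had 209 counts in all and at least 10 counts in both libraries of 3 of the 8 groups. It stood at 0.459 and 0.482 CPM in shTIP60 normoxia and at 1.54 and 1.16 CPM in shTIP60 hypoxia, and the hypoxic libraries were the highest of all 16. The rise was 1.51 ± 0.49 (adjusted p = 0.0235), but leaving out any of the 4 libraries ended the call (adjusted p from 0.0544 to 0.154) and DESeq2 gave 0.0512. Against shNT in hypoxia, at 0.138 and 0.331 CPM, the difference was 2.49 ± 0.55 (adjusted p = 0.00412). In shCDK8 cells IGFBP5 stood at 0.0358 and 0.0884 CPM in normoxia, below both shNT libraries at 0.431 and 0.549 CPM. That difference was -2.87 ± 0.74 (adjusted p = 0.0163), with 4 counts against 37, and the call was lost without shNT normoxia B (0.102), shCDK8 normoxia A (0.101) or shCDK8 normoxia B (0.0673). In hypoxia shCDK8 and shNT cells had 3 and 14 counts, a ratio of 0.175 with a 95% counting interval from 0.0323 to 0.628. HIF1A-null cells had 0.151 and 0.501 CPM in normoxia and 0.0744 and 0.0974 CPM in hypoxia, a difference of -1.87 ± 0.75 that did not pass (adjusted p = 0.0596) and that was called without normoxia A (0.0171). IGFBP2, its neighbour on chromosome 2, was called in neither of the line comparisons in which IGFBP5 was. With hypoxia in shTIP60 cells both genes were called higher in the main fit.

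The makeup of binding protein mRNA therefore differed between lines. Summed over IGFBP1 to IGFBP7, the level was 269 ± 28.3 CPM per kb (SD, n = 2) in shNT normoxia, 516 ± 142 in shNT hypoxia, 696 ± 20.1 in shTIP60 normoxia and 1364 ± 45.3 in shTIP60 hypoxia. It was 232 ± 35.9 and 442 ± 13.1 in shCDK8 and 475 ± 121 and 685 ± 188 in HIF1A-null cells, in normoxia and hypoxia. Within this sum IGFBP3 made up 0.217% in shNT normoxia and 2.59% in shNT hypoxia, against 33.3% and 41.9% in shTIP60. Its share was 0.483% and 2.13% in shCDK8 and 0.0108% and 0.0167% in HIF1A-null cells. IGFBP6 made up 38.8% in shNT normoxia and 54.5% in shNT hypoxia, and 70.2% and 74.8% in HIF1A-null cells, where IGFBP2 made up 29.7% and 25.2%. In shCDK8 cells IGFBP2 made up 69.7% in normoxia and 54.2% in hypoxia. With all annotated exons as length, the IGFBP3 shares in shTIP60 cells were 32.2% and 40.5%. The shares of IGFBP2 and IGFBP6 depended on the length used. By all exons IGFBP6 was above IGFBP2 in shNT normoxia (73.4 against 48.8 CPM per kb). The same held in shCDK8 normoxia (48.6 against 48.3) and in shCDK8 hypoxia (136 against 71.6). Of all counts in the library, IGFBP3 took 0.138% and 0.148% in the 2 libraries of shTIP60 hypoxia.

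**Figure D2:**
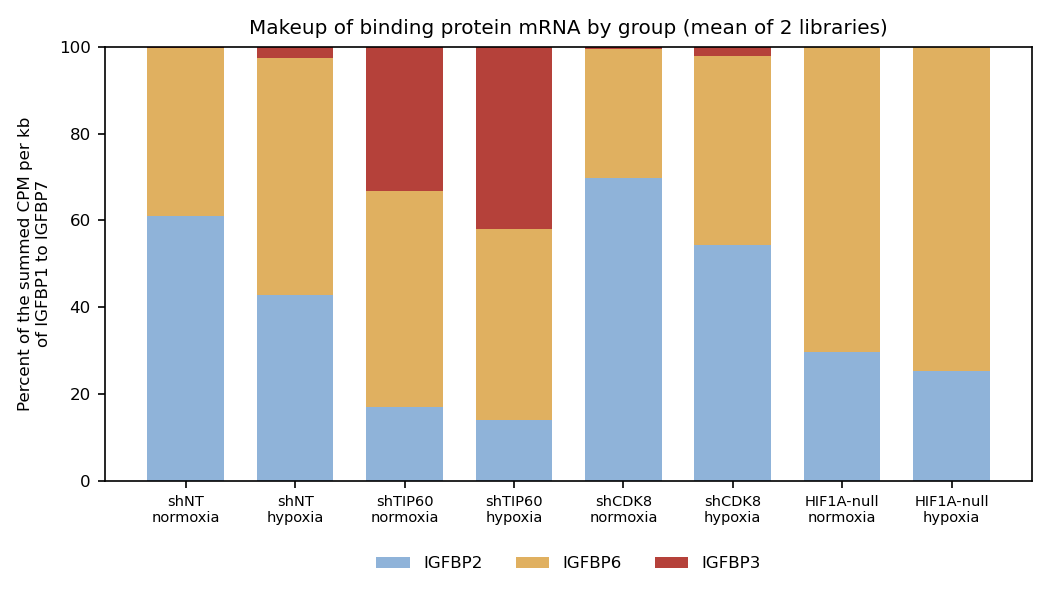
Percent of the summed CPM per kb of IGFBP1 to IGFBP7 held by IGFBP2, IGFBP6 and IGFBP3 in each of the 8 groups (mean of 2 libraries, canonical transcript length). IGFBP3 fills 33.3% and 41.9% of the 2 shTIP60 bars and at most 2.59% of the others. The shares of IGFBP2 and IGFBP6 depend on the length used.

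INSR and IGF1R, the tyrosine kinase receptors, rose with hypoxia in all 4 lines. INSR stood at 47.3 and 49.7 CPM in shNT normoxia and at 92.6 and 103 CPM in shNT hypoxia. It stood at 36.6 and 39.2 then 77.4 and 76.1 CPM in shTIP60, and at 39.1 and 32.4 then 77.6 and 86.9 CPM in shCDK8 cells. In HIF1A-null cells it stood at 55.7 and 54.4 then 92.5 and 98.9 CPM. All 8 hypoxic libraries exceeded all 8 normoxic libraries. The rises were 1.01 ± 0.12 (shNT, adjusted p = 1.30e-05), 1.02 ± 0.12 (shTIP60, 1.42e-05), 1.20 ± 0.13 (shCDK8, 6.21e-06) and 0.80 ± 0.12 (HIF1A-null, 1.36e-04). None of the 3 differences between these responses and that of shNT passed the test, the lowest adjusted p being 0.431. INSR was lower in shCDK8 than in shNT cells in normoxia, by -0.44 ± 0.12 (adjusted p = 0.0265). That call was lost without shNT normoxia A (0.0819), shNT normoxia B (0.171) or shCDK8 normoxia B (0.224). The shTIP60 values of -0.36 ± 0.12 in normoxia (adjusted p = 0.0583) and -0.35 ± 0.12 in hypoxia (adjusted p = 0.0522) did not pass, and DESeq2 called both (0.0374 and 0.0344).

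IGF1R stood at 20.9 and 25.4 CPM in shNT normoxia and at 41.1 and 46.0 CPM in shNT hypoxia. It stood at 30.7 and 38.0 then 49.0 and 49.1 CPM in shTIP60, and at 23.9 and 20.7 then 38.7 and 43.1 CPM in shCDK8 cells. In HIF1A-null cells it stood at 28.6 and 27.6 then 49.2 and 54.6 CPM. Again every hypoxic library exceeded every normoxic library, here by a narrow margin between shTIP60 normoxia B and shCDK8 hypoxia A. The rises were 0.91 ± 0.15 (shNT, adjusted p = 1.45e-04), 0.51 ± 0.14 (shTIP60, 0.0101), 0.88 ± 0.15 (shCDK8, 4.99e-04) and 0.89 ± 0.14 (HIF1A-null, 2.19e-04). IGF1R was higher in shTIP60 than in shNT cells in normoxia, by 0.57 ± 0.15 (adjusted p = 0.0121), and the difference in hypoxia was 0.17 ± 0.14 (adjusted p = 0.429). The response of shTIP60 minus that of shNT was not called for IGF1R by edgeR or DESeq2 (-0.39 ± 0.22, adjusted p = 0.889 by DESeq2). The shTIP60 calls depended on single libraries. The rise with hypoxia was lost without normoxia A (0.149), hypoxia A (0.0547) or hypoxia B (0.0537), and the difference in normoxia without shNT normoxia A (0.157) or shTIP60 normoxia B (0.172).

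**Figure D3:**
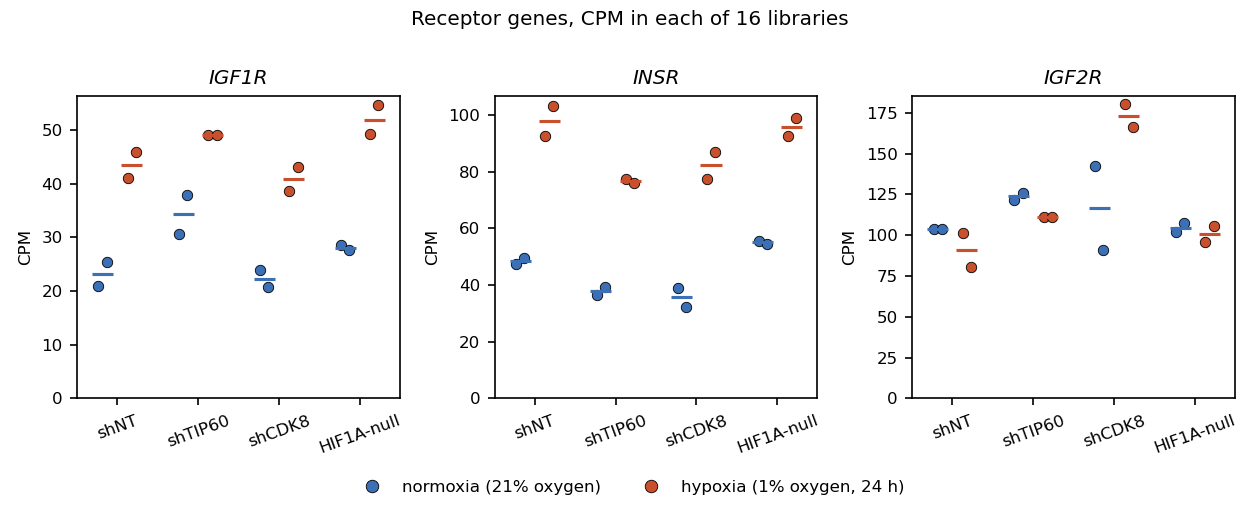
CPM of IGF1R, INSR and IGF2R in each of the 16 libraries (points) by line, with normoxia in blue, hypoxia in orange and the group mean as a bar, on axes that start at 0. INSR and IGF1R are higher in all hypoxic than in all normoxic libraries, and IGF2R reaches its highest values, 180.3 and 166 CPM, in shCDK8 hypoxia.

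IGF2R, the receptor that removes IGF2, had another pattern. It stood at 103.6 and 103.8 CPM in shNT normoxia and at 101.3 and 80.6 CPM in shNT hypoxia, at 121.8 and 126.2 then 111.25 and 111.26 CPM in shTIP60, and at 102.0 and 107.4 then 95.6 and 105.5 CPM in HIF1A-null cells. In shCDK8 cells it stood at 142.5 and 91.3 CPM in normoxia and at 180.3 and 166.2 CPM in hypoxia, the highest 2 of the 16 libraries. Against shNT in hypoxia the shCDK8 difference was 0.93 ± 0.17 (adjusted p = 8.44e-04), and the call was kept without each library in turn but lost against a 1.5-fold null (0.0935). The rise with hypoxia in shCDK8 was 0.57 ± 0.17 (adjusted p = 0.0215), and it ran from 0.28 (adjusted p = 0.240) without shCDK8 normoxia B to 0.92 without normoxia A. It was also lost without hypoxia A (0.117) or hypoxia B (0.0666). The changes of IGF2R in shNT (-0.19 ± 0.17, adjusted p = 0.395) and shTIP60 (-0.16 ± 0.17, adjusted p = 0.491) did not pass. The response of shCDK8 minus that of shNT was 0.76 ± 0.24 (adjusted p = 0.247), and this difference was called by edgeR with a replicate block (adjusted p = 0.0394) and with no filter (0.0371).

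Counted over the 7 tested genes, 3 were higher and 0 lower in shTIP60 than in shNT in normoxia (IGFBP3, IGFBP6 and IGF1R), where 10.3% of all genes were higher and 8.13% lower (18.4% in either direction). In hypoxia 3 were higher and 0 lower (IGFBP3, IGFBP5 and IGFBP6), where 11.3% were higher and 10.5% lower (21.8%). In shCDK8 cells 0 were higher and 2 lower in normoxia (IGFBP5 and INSR), where 5.8% of all genes were higher and 7.27% lower (13.1%). In hypoxia 1 was higher and 0 lower (IGF2R), where 14.4% were higher and 13.4% lower (27.9%). In HIF1A-null cells IGFBP6 was higher and IGFBP3 lower in normoxia, where 5.86% of all genes were higher and 5.86% lower (11.7%), and in hypoxia, where 20.3% were higher and 20.8% lower (41.1%). Scaling by library totals turned the split of all calls in the latter from 3157 higher and 3221 lower to 2317 and 4008, with a median over all genes of -0.12. For shCDK8 and HIF1A-null cells in hypoxia, 1 and 2 of 7 genes called were no more than the share of all genes called. The median log2 differences of the 7 genes were 0.26, -0.056 and 0.014 in normoxia and 0.29, -0.25 and -0.032 in hypoxia for shTIP60, shCDK8 and HIF1A-null, with medians over all genes between -0.00744 and 0.0162. The 3 lines share the shNT libraries as controls, so their differences from shNT are not independent of each other.

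**Figure D4:**
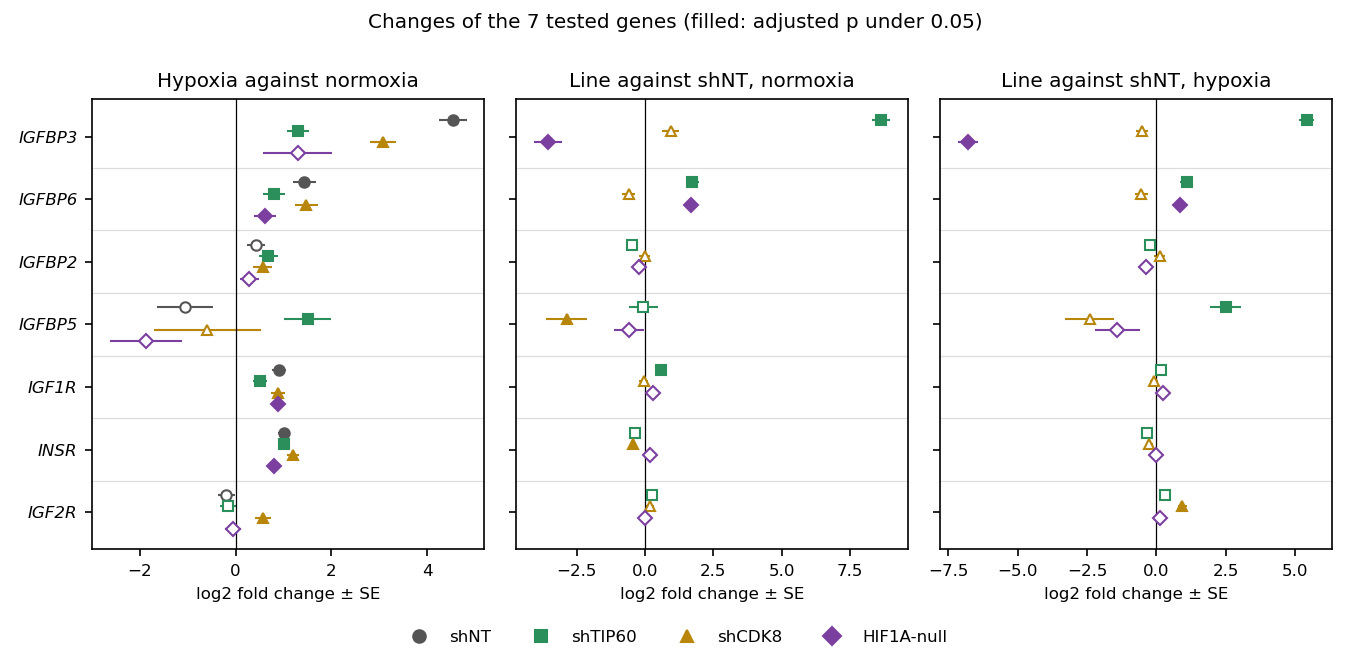
Log2 fold change ± SE of the 7 tested genes with hypoxia in each line (left) and in each line against shNT in normoxia (middle) and hypoxia (right). Filled symbols have an adjusted p below 0.05. In shTIP60 cells (squares) IGFBP3 lies at 8.64 in normoxia and 5.41 in hypoxia, and in HIF1A-null cells (diamonds) at -3.55 and -6.79.

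The other genes of the pathway were read from lists of ligands, proteases, related proteins and signal relay. HCT116 cells made little of the ligands. IGF2 had group means from 0.467 to 5.25 CPM, IGF1 had 0 or 1 count per library and INS had 0. IGF2 was lower in shCDK8 than in shNT cells (-2.27 ± 0.43, adjusted p = 0.00179 in normoxia and -1.48 ± 0.38, adjusted p = 0.00830 in hypoxia). It was higher in HIF1A-null cells (1.24 ± 0.33, adjusted p = 0.0223 in normoxia and 0.91 ± 0.34, adjusted p = 0.0404 in hypoxia). M6PR, the smaller mannose 6-phosphate receptor, fell with hypoxia in shNT (-0.38 ± 0.12, adjusted p = 0.0147) and shTIP60 cells (-0.35 ± 0.11, adjusted p = 0.0244). Of the 4 tested genes of this list of 6, 0 rose with hypoxia in any line and 1 fell in shNT (M6PR), shTIP60 (M6PR) and HIF1A-null (IGFALS, with 6 and 10 counts in normoxia and 0 and 0 in hypoxia). Among all tested genes 20.7% rose and 20% fell in shNT and 19.4% and 19.8% in shTIP60. The shares were 13.8% and 11% in shCDK8 and 18.9% and 19.1% in HIF1A-null cells.

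Of 11 listed proteases that cut binding proteins and their regulators, 6 were tested. With hypoxia 4 rose in shNT, 4 in shTIP60, 3 in shCDK8 and 3 in HIF1A-null cells, and 0 fell in these comparisons, where 20.7%, 19.4%, 13.8% and 18.9% of all genes rose and 20%, 19.8%, 11% and 19.1% fell. STC2, which encodes stanniocalcin 2, an inhibitor of the binding protein protease PAPPA, rose by 2.93 ± 0.22, 3.34 ± 0.22, 1.69 ± 0.21 and 3.26 ± 0.22 in shNT, shTIP60, shCDK8 and HIF1A-null cells. STC1, its relative, had 3 and 3 counts in shNT normoxia and 60 and 57 in shNT hypoxia, while the other lines had at most 13 counts in any hypoxic library. PAPPA itself was not tested. MMP14, a membrane-anchored matrix metalloproteinase, also rose in all 4 lines (0.53 to 0.79). It was higher than shNT in shTIP60 (0.73 ± 0.16, adjusted p = 0.00399) and shCDK8 (1.51 ± 0.16, adjusted p = 8.60e-06) and lower in HIF1A-null cells (-1.79 ± 0.17, adjusted p = 2.50e-06) in normoxia. MMP7, a secreted protease known to cut IGFBP3, was higher in normoxia in shTIP60 (2.10 ± 0.47, adjusted p = 0.00498) and shCDK8 (2.93 ± 0.45, adjusted p = 3.29e-04), at 0.989 and 1.75 CPM against 0.227 CPM in shNT.

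Of 9 listed relatives of the binding proteins, 5 were tested. With hypoxia 2 rose and 1 fell in shNT, 3 and 1 in shTIP60, 1 and 0 in shCDK8, and 2 and 2 in HIF1A-null cells, where 20.7%, 19.4%, 13.8% and 18.9% of all genes rose and 20%, 19.8%, 11% and 19.1% fell. NOV, a CCN family protein, fell in shNT (-1.58 ± 0.52, adjusted p = 0.0226), shTIP60 (-1.70 ± 0.40, adjusted p = 0.00334) and HIF1A-null cells (-1.43 ± 0.41, adjusted p = 0.0112). Its change in shCDK8 was -0.89 ± 0.38 (adjusted p = 0.0996). In normoxia NOV was above shNT in shTIP60 (1.80 ± 0.40, adjusted p = 0.00496), shCDK8 (1.73 ± 0.40, adjusted p = 0.00782) and HIF1A-null (1.55 ± 0.40, adjusted p = 0.0166). CYR61, a matrix protein of the CCN family, rose with hypoxia in all 4 lines, by 1.84 ± 0.20, 0.95 ± 0.20, 1.06 ± 0.20 and 2.59 ± 0.21 in the order given above. CTGF, of the same family, went from 2.97 to 8.61 CPM in shNT and from 10.1 to 53.2 CPM in shTIP60 cells with hypoxia. It was above shNT in shTIP60 by 1.76 ± 0.23 in normoxia (adjusted p = 5.15e-05) and 2.63 ± 0.22 in hypoxia (adjusted p = 4.62e-07), and below it in HIF1A-null cells by -1.10 ± 0.26 (adjusted p = 0.00932) and -1.73 ± 0.24 (adjusted p = 3.62e-05). Of the 3 IGF2 mRNA binding proteins, IGF2BP2 rose with hypoxia in all 4 lines, by 0.90 ± 0.12 in shNT and least, by 0.66 ± 0.12, in HIF1A-null cells. IGF2BP1 and IGF2BP3 were higher in shTIP60 than in shNT cells in normoxia, by 2.09 ± 0.31 (adjusted p = 1.60e-04) and 0.97 ± 0.18 (adjusted p = 9.69e-04).

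Of 31 listed genes of insulin and IGF signal relay, 30 were tested. With hypoxia 9 rose and 2 fell in shNT, 6 and 3 in shTIP60, 5 and 2 in shCDK8, and 8 and 4 in HIF1A-null cells. Over all tested genes 20.7% rose and 20% fell in shNT, 19.4% and 19.8% in shTIP60, 13.8% and 11% in shCDK8, and 18.9% and 19.1% in HIF1A-null cells. The list medians were 0.073, 0.19, 0.13 and 0.091, against medians near 0 over all genes as given above. IRS2, an adaptor bound by both receptors, rose by 2.61 ± 0.20, 2.66 ± 0.20, 1.37 ± 0.20 and 1.48 ± 0.20. FOXO3, a transcription factor inactivated by the pathway, rose by 1.73 ± 0.16, 1.53 ± 0.16, 1.39 ± 0.16 and 1.41 ± 0.16. PIK3R3, a regulatory subunit of phosphoinositide 3-kinase, fell in all 4 lines, from 2.64 to 0.486 CPM in shNT (-2.43 ± 0.34, adjusted p = 4.35e-05). MTOR, the kinase of the mTOR complexes, fell from 109 to 51.5 CPM in shNT cells and from 117 to 54.9 CPM in shTIP60 cells. Against shNT in normoxia, 2 of the 30 genes were higher and 6 lower in shTIP60 cells, where 10.3% of all genes were higher and 8.13% lower. GRB14, an adaptor that inhibits the insulin receptor, was lower there by -3.70 ± 0.29 (adjusted p = 1.93e-07), with 13 and 15 counts against 185 and 213, and GRB10, its relative, by -1.25 ± 0.13 (adjusted p = 6.61e-06). SOCS2, a feedback inhibitor of growth hormone signalling, was higher by 1.71 ± 0.15 (adjusted p = 8.59e-07).

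Some genes followed a binding protein across the 8 groups. Pearson r of group means of log2 CPM was computed against every tested gene with a mean of at least 5 CPM, over 8 points that share libraries, so it is given as a description. The 3 genes most like IGFBP3 were GLIS3, which encodes a zinc finger transcription factor (r = 0.978), TFPI, an inhibitor of coagulation (0.973), and MGAT5B, a glycosyltransferase (0.971). Those most like IGFBP6 were CTSD, which encodes the lysosomal protease cathepsin D (0.984), MSLN, the surface protein mesothelin (0.973), and TMC6 (0.972). CTSD had the narrower range, with group means from 156 to 340 CPM, and was also in the protease list. Those most like IGFBP5, whose low counts limit the value, were RAB27B, a GTPase of secretory vesicles (0.946), GNE, an enzyme of sialic acid synthesis (0.930), and CMTM8 (0.926). Every gene named here had a narrower range of group means than its binding protein. On the log2 scale IGFBP3 spanned 12.99, against 6.35 for GLIS3, 3.92 for TFPI and 1.92 for MGAT5B.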

How the data were processed

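Poly(A) RNA of 16 libraries was sequenced on an Ion Torrent Proton, per the labels' protocols. The deposited values are the authors' raw read counts per gene symbol. The submitters' processing notes name the aligner GSNAP, the counter HTSeq, DESeq and the build hg19. Annotation, strand setting and read filters are not given in the sources used here. Column names gave the group and a library number but no replicate number. Library A has the lower number of its group.

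Genes were kept by edgeR's filterByExpr (minimum count 10, minimum total 15) and tested with edgeR 4.0.16 in R 4.3.3: TMM factors, a robust quasi-likelihood fit of all 16 libraries with 1 coefficient per group (8 residual df, common BCV 0.132), two-sided p adjusted by Benjamini-Hochberg over 15520 genes at 0.05, in 13 comparisons. Libraries of a group differed by 8.90 to 68.3 times the variance of counting. Coordinates and lengths are from GENCODE release 44 lifted to GRCh37. Promoters are from RefSeq.

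The genes, pathway lists and tests were chosen with earlier results of these data known. Named were all 10 genes, up to 3 called genes with the smallest adjusted p per pathway list and comparison described, the targeted genes, and the 3 genes most like IGFBP3, IGFBP5 and IGFBP6. STC1, IGF1, INS and PAPPA, and some repeats of a named gene in other comparisons, were named outside this rule after their values were seen. Alternatives were DESeq2 1.42.0, RLE factors, library totals, other filters, only the groups compared, a 1.5-fold null, a replicate block and leaving out each library.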

Additional observations from a re-analysis of the deposited data

Results flagged for a closer look

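The hypoxia response of IGFBP3 differed between lines by a test of the difference itself. In shTIP60 cells it was 3.23 lower on the log2 scale than in shNT cells (-3.23 ± 0.36, adjusted p = 0.00184 by edgeR), with group means of 604 and 1492 CPM in normoxia and hypoxia against 1.505 and 35.1 CPM. In HIF1A-null cells it was also lower than in shNT cells (-3.24 ± 0.91, adjusted p = 0.0248), with group means of 0.126 and 0.325 CPM that rest on 10 and 18 counts. This second call was lost without shNT normoxia A (0.0561), HIF1A-null normoxia B (0.193) or HIF1A-null hypoxia B (0.0678), with only the groups compared (0.0548) and against a 1.5-fold null (0.0755). These nearly equal differences come from levels at opposite ends of the range of IGFBP3. All 4 shTIP60 libraries were above, and all 4 HIF1A-null libraries below, every library of the other lines.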

How the results depend on the processing

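Of 34 called changes of single genes, none reversed over 413 alternative values, while 61 lost the call. Uncalled changes were followed only where they exceeded their SE, a restriction chosen after seeing the data. Of 442 such values 45 gained a call and 3 reversed, each without 1 library: IGF2R in shCDK8 against shNT in normoxia (-0.18 without shCDK8 normoxia A, 0.46 without B), IGFBP5 in HIF1A-null against shNT in normoxia (0.043 without HIF1A-null normoxia A, -1.68 without B) and IGFBP2 in shTIP60 against shNT in hypoxia (0.058 without shNT hypoxia A, -0.45 without B). The number of the 7 genes called moved by over 1.5 times as follows, with the value above in brackets. With no filter it was 3 (1) for shCDK8 against shNT in hypoxia, 2 (0) for the shCDK8 and 2 (1) for the HIF1A-null response difference. With a mean of at least 5 CPM it was 1 (2) for shCDK8 against shNT in normoxia. Against a 1.5-fold null it was 2 (6), 3 (6) and 0 (3) for hypoxia in shTIP60, shCDK8 and HIF1A-null, 0 (2) and 0 (1) for shCDK8 against shNT in normoxia and hypoxia, 1 (2) for HIF1A-null in hypoxia and 0 (1) for the HIF1A-null response difference. With only the groups compared it was 6 (3) for shTIP60 in normoxia, 2 (1) for shCDK8 in hypoxia and 0 (1) for the HIF1A-null response difference. DESeq2 gave 1 (0) for the shCDK8 response difference. The filter at a mean of 5 CPM left out IGFBP5, called above for shCDK8 in normoxia, whose group means were at most 1.35 CPM. The cause of the other changes was not tested.

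Leaving out each library in turn gave 4 to 5 genes called with hypoxia in shNT, 2 to 4 in shTIP60, 4 to 6 in shCDK8 and 2 to 4 in HIF1A-null. Against shNT it gave 2 to 3, 0 to 1 and 2 to 2 in normoxia and 2 to 3, 1 to 3 and 1 to 2 in hypoxia for shTIP60, shCDK8 and HIF1A-null. For the response differences it gave 1 to 1, 0 to 0 and 0 to 2. The lone library left in a group is assumed to vary like the other groups.

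A replicate block by the series of library numbers, added after seeing the data, gave 5 (3) for shTIP60 and 4 (2) for shCDK8 against shNT in normoxia, 4 (1) for shCDK8 in hypoxia, and 2 (0) and 2 (1) for the shCDK8 and HIF1A-null response differences. Deviations of libraries of the same series correlated at 0.0307 to 0.336 (median 0.119) over 28 pairs of groups, all positive, with 18 over 0.1. The series was not in the main fit, where a shift shared by a series counts as spread between libraries. IGFBP2, for example, was higher in library A than in library B in every group. Calls over all genes for the shTIP60 response difference moved from 5 to 106 with no filter, 64 by DESeq2 and 72 with the block, and for that of shCDK8 from 6 to 384, 220 and 532. For that of HIF1A-null they moved from 2553 to 580 against the 1.5-fold null, 1030 with only the groups compared and 4187 with the block.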

Other observations

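Among the 30 tested genes of the signal relay list, edgeR called 3 whose hypoxia response was higher in HIF1A-null than in shNT cells and 2 whose response was lower, a share near that of all genes (7.53% higher and 8.92% lower). MTOR, the kinase of the mTOR complexes, stood in HIF1A-null cells at 120 ± 21.3 CPM (SD, n = 2) in normoxia and 115 ± 3.45 in hypoxia, against 109 ± 10.5 and 51.5 ± 9.13 in shNT (response difference 1.01 ± 0.24, adjusted p = 0.00973). IRS2 rose less in HIF1A-null than in shNT cells (-1.13 ± 0.27, adjusted p = 0.0113), and PIK3R1, the main regulatory subunit of phosphoinositide 3-kinase, changed by -0.87 ± 0.14 with hypoxia in HIF1A-null and by -0.17 ± 0.13 in shNT cells (difference -0.70 ± 0.19, adjusted p = 0.0208).

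PIK3R1 and PIK3R3 were both higher in shCDK8 than in shNT cells. PIK3R1 stood at 27.2 ± 1.08 CPM in shCDK8 and 13.4 ± 0.852 in shNT in normoxia (1.02 ± 0.13, adjusted p = 5.82e-05) and at 25.1 ± 0.686 and 11.9 ± 0.142 in hypoxia (1.08 ± 0.13, adjusted p = 2.67e-05). PIK3R3 differed by 1.61 ± 0.27 (adjusted p = 6.47e-04) and 2.91 ± 0.34 (adjusted p = 1.59e-05). In shTIP60 cells in hypoxia PIK3R1 was lower than in shNT, at 5.14 ± 0.163 CPM (-1.21 ± 0.14, adjusted p = 1.33e-05). It was also lower in HIF1A-null cells in hypoxia (-1.09 ± 0.14, adjusted p = 1.62e-05). PIK3R3 in hypoxia was higher than shNT in shTIP60 (1.44 ± 0.36, adjusted p = 0.00976) but not called in HIF1A-null cells (0.042 ± 0.42, adjusted p = 0.950).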
